A study of Mus musculus with 12 samples.

Results

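MHC class II molecules show peptides from the endosomes of antigen-presenting cells to CD4+ T cells. The set described here holds 9 genes of this pathway in mouse islets: the invariant chain Cd74, the classical chains H2-Ab1, H2-Aa and H2-Eb1, the peptide editor chains H2-DMa and H2-DMb1, their modulators H2-Oa and H2-Ob, and the class II transactivator Ciita. The genes were chosen by name, and every non-control probe whose accession matched one of them was taken. This gave 12 of the 41174 non-control probes, for 8 of the 9 genes. No probe matched H2-Eb1. There were 3 probes for H2-Ab1, 2 each for H2-Aa and H2-Oa, and 1 for each of the other 5 genes.

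Islets of 6 NOD mice were compared with islets of 6 NOD.B10 mice, each of them a female aged 12 weeks, with no treatment named in the labels. NOD mice develop autoimmune diabetes after leukocytes enter the islets, while NOD.B10 mice share the NOD background, carry another MHC haplotype and serve as the control that stays free of diabetes. Sections of islets were taken by laser from frozen pancreas, their RNA was amplified and labelled with Cy5, and each of the 12 arrays held the RNA of 1 mouse beside a common mouse reference RNA labelled with Cy3. The comparison asks how islet transcripts of the diabetes-prone strain differ from those of the protected one, and p-values measure the spread between these mice.

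In textbook terms, the class II α and β chains pair in the endoplasmic reticulum with the invariant chain, which blocks the groove and directs the complex to endosomes. There cathepsins, with cathepsin S as the main protease of the last step, cut the invariant chain down to the CLIP fragment, H2-DM exchanges CLIP for other peptides, and H2-O restrains H2-DM, above all in B cells. B cells, dendritic cells and activated macrophages express the set under the transactivator CIITA, which interferon gamma can induce in other cells too. The genes of the H2 chains lie on chromosome 17, in the MHC region where the strains differ, while Ciita and Cd74 lie on other chromosomes. NOD carries the H2g7 haplotype, which has its own H2-Ab1 allele. Neither the sequences of the probes nor the alleles' sequences were used here, so whether a probe bound the transcripts of both strains equally was not tested, and every probe is given on its own.

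Class II promoters share short elements, of which the X box is bound by the RFX complex and the Y box, an inverted CCAAT, by NF-Y. CIITA itself binds no DNA and is recruited to these factors. The promoters of 6 of the 9 genes were found in the RefSeq table of build GRCm38.p6, with 2 promoters for H2-DMa and none for Cd74, H2-Ab1 or Ciita. This build is of the C57BL/6 genome, not of NOD. The 5 stretches below hold the Y letters TGATTGG, and 3 of them the X letters AACNNATGA as well, shown because they are the elements that genes of this set share and the rule did not use. Each is 65 bases, written 5′ to 3′ on the strand of its gene, with X and Y letters in capitals.
H2-Aa, chr17:34287859-34287923, minus strand: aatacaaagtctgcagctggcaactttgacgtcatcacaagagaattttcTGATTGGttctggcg
H2-Eb1, chr17:34305756-34305820, plus strand: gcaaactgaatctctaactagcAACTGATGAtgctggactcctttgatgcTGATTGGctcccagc
H2-DMb1, chr17:34153078-34153142, plus strand: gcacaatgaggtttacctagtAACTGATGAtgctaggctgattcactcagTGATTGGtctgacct
H2-Oa, chr17:34092284-34092348, plus strand: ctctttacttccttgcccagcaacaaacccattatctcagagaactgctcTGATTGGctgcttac
H2-Ob, chr17:34238796-34238860, plus strand: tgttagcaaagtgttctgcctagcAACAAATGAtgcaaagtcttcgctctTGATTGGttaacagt

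The Y letters began between 45 and 63 bases before the gene start, on the strand of the gene in all 5. In H2-Eb1, H2-DMb1 and H2-Ob the X letters stood upstream of them, with 19, 20 and 17 bases between X and Y and no overlap. Searched on both strands over windows of 300 bases, the Y letters were found in 2568 of 32851 promoters (7.82%), the X letters in 935 (2.85%) and both in 101 (0.307%). X followed by Y on the same strand, with 10 to 25 bases between them, was found in 6 promoters (0.0183%). These were the 3 genes just named, the further class II gene H2-DMb2, BC051142, also on chromosome 17, and Tnfrsf9 on chromosome 4. The X letters and the spacing were set after these promoters had been read, so the counts describe the letters and are no test. Both H2-DMa promoters held neither. The arrays measured a change of H2-DMb1 and H2-Oa, one with both elements in these letters and one with Y alone, while H2-Ob and H2-Aa were hardly above background.

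The islet channel of the NOD arrays was brighter as a whole, which stands beside every value that follows. The scanner marked Cy5 as well above background for 10.7 to 17.3% of spots in NOD and 3.96 to 7.88% in NOD.B10 (exact 2-sided permutation p = 0.00216, n = 6 per strain, the smallest that 6 against 6 arrays can give). The Cy3 channel, with the same RNA on each array, reached this mark for 50.4 ± 1.94% of spots in NOD and 50.1 ± 2.27% in NOD.B10. Over 1083 probes well above background in Cy5 on all 12 arrays, the median net Cy5 signal (signal minus local background) ran from 68 to 208.5 scanner units in NOD and from 23 to 49 in NOD.B10. Below, net signals are also given as a percent of this median of the same array, called its brightness. The labelled tissue was borne out by insulin: Ins2 had 12510 ± 6866 units in NOD and 14228 ± 5550 units in NOD.B10 (SD, n = 6 each) and was well above background on every array. The slides cannot be told apart from the strains on slide 1 (2 NOD mice) and slide 4 (2 NOD.B10 mice), which was read on another day, while 2 mice of each strain shared slide 2 and another 2 of each shared slide 3.

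Class II transcripts read by 4 probes were higher in NOD islets: Cd74, 1 probe of H2-Ab1, H2-DMb1 and 1 probe of H2-Oa. In NOD.B10 islets none of the 12 probes was well above background in Cy5 on any array. The 4 probes were the ones that passed the filter for testing, a Cy5 signal well above background on 4 or more arrays. They passed it through the NOD arrays alone, so the filter itself favoured higher values in NOD, and their calls are no independent support. Of all 5347 probes tested with limma, 1071 (20.0%) passed as higher in NOD and 876 (16.4%) as lower, at a threshold of 0.05 after Benjamini-Hochberg adjustment. Among the 1722 tested probes without a single NOD.B10 array well above background, as for these 4, 520 (30.2%) were called higher.
With all 41174 probes tested, without a filter, 4 of the 12 member probes were higher and 0 lower, against 910 higher probes (2.21%) in all. The median change of the 12 was 0.20 on the log2 scale, against -0.0065 for all probes. The other 8 probes did not pass in that fit, and 2 of them had an unadjusted p under 0.05, those of Ciita and H2-Aa given below. Of the 12, 6 were never well above background in Cy5 and 4 never in Cy3, against 32137 and 14878 of all 41174 probes.

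**Figure D1:**
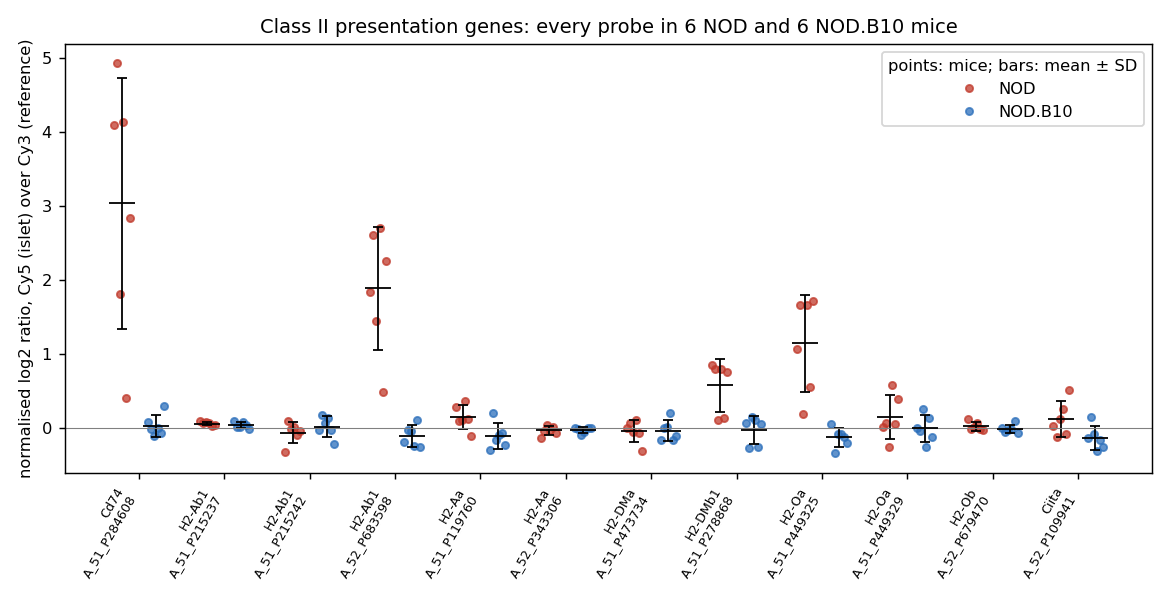
Normalised log2 ratio of Cy5 (islet RNA) to Cy3 (common reference) for each of the 12 probes, with 6 NOD mice (red, left) and 6 NOD.B10 mice (blue, right) per probe and bars for mean ± SD. Points of the strains are apart for Cd74, H2-Ab1 A_52_P683598 and H2-Oa A_51_P449325, partly apart for H2-DMb1 and mixed for the other 8 probes.

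Cd74, the invariant chain that escorts class II and is also a receptor for the cytokine MIF, was higher in NOD islets. Its net Cy5 signal was lowest at 16.5, had a median of 247 and was highest at 723 units in NOD, against 0, 2.25 and 9 units in NOD.B10. The strains did not overlap, and the lowest NOD mouse, NOD 5, lay close to the highest NOD.B10 mouse. The signal averaged 283 ± 258 units in NOD and 3.42 ± 3.17 units in NOD.B10 (SD, n = 6 each), and it was well above background on all 6 NOD arrays and on 0 NOD.B10 arrays. The reference channel of the same spot read 333 ± 43.3 units in NOD and 274 ± 30.1 units in NOD.B10.
On the scale of the test, the log2 ratio of Cy5 to Cy3 after loess, a value of 0 is the middle of the probes of like brightness on that array and not an equal amount of both RNAs. The ratio of Cd74 ran from 0.41 over a median of 3.47 to 4.93 in NOD and from -0.11 over -0.0087 to 0.30 in NOD.B10. Cd74 was higher in NOD by 3.00 ± 0.61 (SE, limma adjusted p = 0.00235). Since no NOD.B10 array measured it above background, the fold is given as a lower bound, at least 4.64-fold. Like every lower bound here, it holds for the reported scaling alone, and other scalings gave smaller or larger changes. As a percent of array brightness the signal was 24.3 to 347% in NOD and 0 to 39.1% in NOD.B10, so on this scale NOD 5 lay inside the range of NOD.B10.
Sections of whole islets with what lies in them were measured, so fewer cells that express a gene and less RNA per cell cannot be told apart, here and for all genes below.

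Of the classical chains, H2-Ab1, the β chain of I-A, was read by 1 of its 3 probes. Probe A_52_P683598 had a net Cy5 signal of 17.5, 96 and 149 units (lowest, median and highest) in NOD and of -3, 0 and 5.5 units in NOD.B10. Every NOD mouse lay above every NOD.B10 mouse, also as a percent of array brightness, where NOD ran from 25.7 to 140% and NOD.B10 from -13.0 to 11.2%. Of the tested probes 442 (8.27%) were apart in this way after brightness was divided out, and of the 4 probes of this set H2-Ab1 was the one. The mean signal was 90.3 ± 49.2 units in NOD and 0.167 ± 3.24 units in NOD.B10 (SD, n = 6 each), with 241 ± 49.5 and 220 ± 33.3 units in the reference channel.
The log2 ratio of this probe ran from 0.48 over 2.05 to 2.70 in NOD and from -0.26 over -0.12 to 0.12 in NOD.B10. It was higher in NOD by 2.00 ± 0.31 (SE, limma adjusted p = 0.000473), at least 2.15-fold.
The other H2-Ab1 probes told nothing of either strain. A_51_P215237, printed on 10 spots of each array, averaged 2.85 ± 0.713 units in NOD and 2.47 ± 1.35 units in NOD.B10, was not above background in the reference channel of any array either, and differed by 0.022 ± 0.036 (SE, limma without a filter, adjusted p = 0.882). A_51_P215242 averaged 1.17 ± 3.36 units in NOD and 2.42 ± 2.06 units in NOD.B10 and differed by -0.082 ± 0.079 (adjusted p = 0.752), with the reference above background on 7 arrays.

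H2-Aa, the α chain that pairs with H2-Ab1, was close to background with both probes. Probe A_51_P119760 had 0.5 to 10 units in NOD and -3.5 to 6 units in NOD.B10 and was well above background in Cy5 on 1 array, that of NOD 4, while the reference was so on 11 arrays. Its log2 ratio was higher in NOD by 0.25 ± 0.091 (SE, limma without a filter), which did not pass (unadjusted p = 0.0162, adjusted p = 0.161), and the strains overlapped. Probe A_52_P343306 had -3 to 3 units in NOD and -2 to 1.5 units in NOD.B10, with a difference of -0.0054 ± 0.040 and the reference channel at background too. Levels of different probes are not compared here, so the values give no order between the α and β chains.

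**Figure D2:**
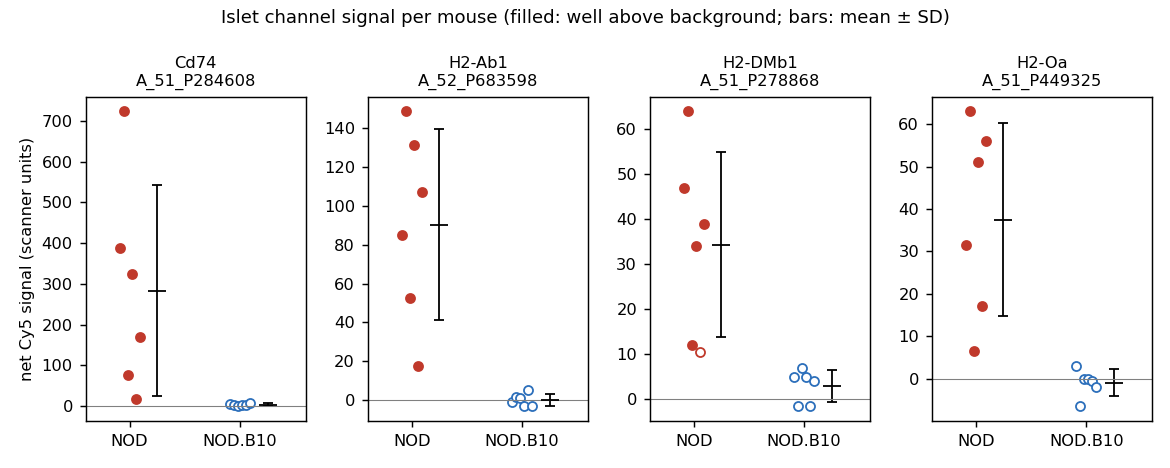
Net Cy5 signal in scanner units for the 4 tested probes, 6 NOD mice left and 6 NOD.B10 mice right, on a linear axis of its own per probe, with filled points where the scanner marked the spot as well above background and bars for mean ± SD. All NOD.B10 points are open and lie at or below 9 units, and the 1 open NOD point is H2-DMb1 of NOD 5.

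Of the peptide editor H2-DM, which exchanges CLIP for other peptides, the β chain was measured and the α chain was not. H2-DMb1 had a net Cy5 signal of 10.5, 36.5 and 64 units (lowest, median and highest) in NOD and of -1.5, 4.5 and 7 units in NOD.B10, and was well above background on 5 NOD arrays and 0 NOD.B10 arrays. Its signals did not overlap, but its log2 ratios did. They ran from 0.11 over 0.78 to 0.85 in NOD and from -0.27 over 0.061 to 0.16 in NOD.B10, with NOD 3 and NOD 5 inside the range of NOD.B10. H2-DMb1 was higher in NOD by 0.60 ± 0.16 (SE, limma adjusted p = 0.0107), at least 1.33-fold. As a percent of array brightness it had 11.8 to 36.4% in NOD and -3.75 to 21.9% in NOD.B10. The call ended when slide was a fixed term, where the change was 0.46 (adjusted p = 0.130).
H2-DMa, the α chain, had -4 to 4 units in NOD and -4 to 4.5 units in NOD.B10, and neither channel of its probe was above background on any array. Its difference of -0.0026 ± 0.079 (SE, limma without a filter, adjusted p = 0.996) therefore says nothing of the transcript.

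Of the H2-DM modulator H2-O, which B cells and some dendritic cells make, the α chain was measured by 1 of 2 probes. H2-Oa A_51_P449325 had 6.5, 41.3 and 63 units (lowest, median and highest) in NOD and -6.5, -0.25 and 3 units in NOD.B10, and was well above background on all 6 NOD arrays and on 0 NOD.B10 arrays. The strains did not overlap in signal or in log2 ratio, which ran from 0.19 over 1.37 to 1.72 in NOD and from -0.34 over -0.098 to 0.056 in NOD.B10. H2-Oa was higher in NOD by 1.27 ± 0.25 (SE, limma adjusted p = 0.00186). No fold is given, because the lower bound was not above 1. As a percent of array brightness NOD had 6.40 to 54.5% and NOD.B10 -16.3 to 7.32%, with NOD 3 inside the range of NOD.B10.
The second H2-Oa probe, A_51_P449329, had -2.5 to 15 units in NOD and -2.5 to 7 units in NOD.B10 and was not well above background in Cy5 on any array, though it was in the reference channel of all 12. Its difference was 0.15 ± 0.13 (SE, limma without a filter, adjusted p = 0.719). The reference channel of this probe read 12.8 ± 1.08 units in NOD and 17.4 ± 3.63 units in NOD.B10 (exact 2-sided permutation p = 0.00649, unadjusted). In that probe NOD 4 and NOD 6 had the highest signals, 15 and 11 units, and both were also among the 3 brightest NOD mice of the first probe. H2-Ob, the β chain, had -1 to 5 units in NOD and -2 to 3 units in NOD.B10, at background in both channels of every array, with a difference of 0.036 ± 0.042 (adjusted p = 0.812).

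Ciita, the transactivator on which class II transcription depends, had 1, 3.75 and 14 units (lowest, median and highest) in NOD and -5.5, -0.75 and 5 units in NOD.B10. It was well above background on 1 array, that of NOD 6, and the strains overlapped. Its log2 ratio was higher in NOD by 0.25 ± 0.11 (SE, limma without a filter, unadjusted p = 0.0358), which did not pass the adjustment (adjusted p = 0.269). Of all 41174 probes, 597 (1.45%) had every NOD ratio above every NOD.B10 ratio, and 3 of the 12 probes were among them, those of Cd74, H2-Ab1 and H2-Oa. Over the tested probes that count was 529 (9.89%).

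The 4 tested probes varied widely among NOD mice, and the same mice were low in all of them. NOD 3 and NOD 5 had the 2 lowest log2 ratios of Cd74 (1.81 and 0.41), of H2-Ab1 (1.44 and 0.48), of H2-DMb1 (0.11 and 0.13) and of H2-Oa (0.19 and 0.56). The highest ratio was in NOD 2 for Cd74, NOD 4 for H2-Ab1, NOD 1 for H2-DMb1 and NOD 6 for H2-Oa. The same 2 mice were lowest in Ptprc, the leukocyte antigen CD45 (2.51 and 2.54), in the B cell antigen Ms4a1, also called CD20 (1.91 and 1.93), and in Lyz2, the lysozyme of myeloid cells (3.75 and 3.34). Their arrays also had the lowest shares of spots well above background, 12.4% and 10.7%, though NOD 4 with 12.9% came close and was high in Cd74 and H2-Ab1.
Across the 6 NOD mice the log2 ratios of Cd74 and H2-Ab1 had a Pearson r of 0.900 (exact permutation p = 0.0181) and a Spearman rho of 0.886 (p = 0.0333). Without the 2 mice farthest from the median of Cd74 r was 0.336. The few mice left span a narrower range, which can lower r by itself, so this value cannot decide whether the relation rests on those 2. Cd74 and the share of spots well above background had r 0.847 (exact permutation p = 0.0389) and rho 0.829 (p = 0.0583), and r 0.513 without the 2 mice farthest from the median of that share. Left without 2 mice in the same way, by the second probe named, H2-Oa and H2-Ab1 had r 0.934, against 0.830 over all 6, and H2-Oa and H2-DMb1 -0.875, against 0.886. Of 10 such pairs among the 4 probes and that share, 0 passed after Benjamini-Hochberg adjustment, by r (smallest adjusted p = 0.0972) or by rho (0.292). For rho the exact test over 6 mice can give no p below 0.00278. Within slides no such relation can be computed, since a slide held 2 NOD mice.

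**Figure D3:**
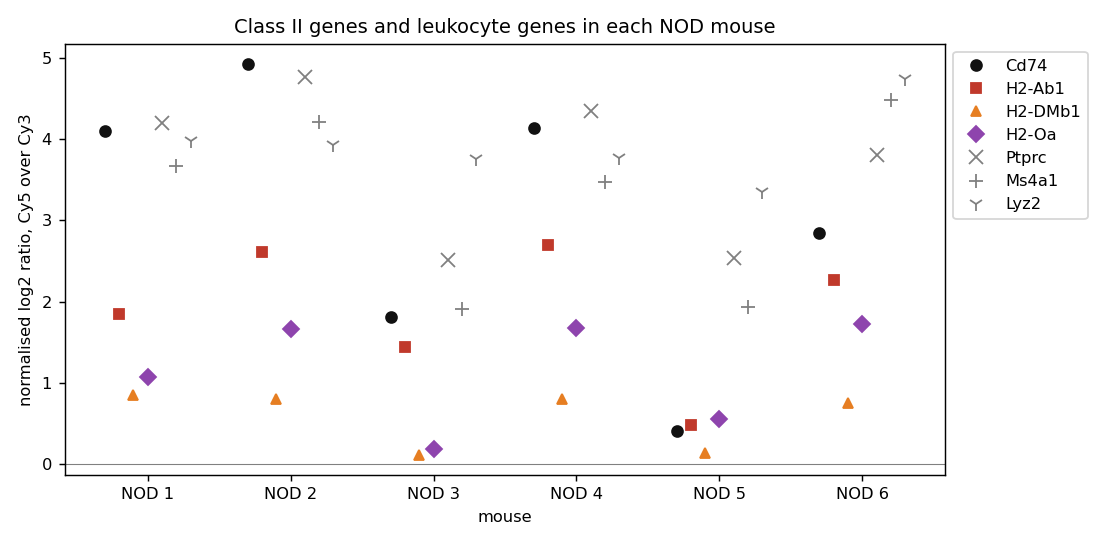
Normalised log2 ratio of Cy5 to Cy3 in each of the 6 NOD mice for the 4 tested class II probes (coloured) and for the leukocyte genes Ptprc, Ms4a1 and Lyz2 (grey). NOD 3 and NOD 5 lie lowest in every one of the 7.

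The genes whose pattern over the 12 arrays was most like that of a class II probe were sought among 3919 other genes, by the root mean square difference of log2 ratios after each probe was centred on its mean. Nearest to Cd74 was Arhgap15, a GTPase activator of Rac (0.497), followed by Limd2, Ms4a6b, Ms4a4b, a T cell membrane protein, Cd52, a glycoprotein of lymphocytes, the T cell chemokine Ccl5, the interleukin-7 receptor Il7r and the CD45 partner Ptprcap (0.686). The median over all candidates was 1.87. Cd52 was at least 4.32-fold and Il7r at least 3.69-fold higher in NOD, with log2 changes of 2.59 ± 0.39 and 3.06 ± 0.45 (SE, limma adjusted p = 0.000393 and 0.00036).
Nearest to H2-Ab1 were the phagocyte bridging protein Mfge8 (0.26), the actin-binding Cotl1, the ribosomal protein Rpl32, the leukocyte protein Cytip, Rps15a, the histone H2ac1, Sh3bgrl3 and Rpl15 (0.313), with a median of 1.16 over all candidates. The nearest genes of H2-Ab1 thus held 3 ribosomal proteins, and those of Cd74 none. The measure follows the strain difference that all these genes have, and all points share the arrays' brightness.

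Of the genes that supply peptides and cut the invariant chain, 17 were listed, 13 tested, 5 called higher and 1 lower in NOD, with a median change of 0.075. Of all tested probes 20.0% were called higher and 16.4% lower. Ctss, the protease that makes CLIP from the invariant chain in B cells and dendritic cells, had a median of 1154 units in NOD and 13.8 units in NOD.B10. It was higher by 4.30 ± 0.41 (SE, limma adjusted p = 2.16e-05) and well above background on 6 NOD and 5 NOD.B10 arrays. The cathepsins Ctsh (2.03), Ctsb (1.10) and Ctsc (0.88, at least 1.66-fold) were higher too. Relative to the median change of the tested probes Ctsb had the opposite direction in the scanner's processed ratios (-0.10) and with normexp offset 0 (-0.29). Marchf1, the ubiquitin ligase that takes class II off the surface, was higher as well (1.31, at least 1.51-fold). Its relative Marchf8 was lower relative to the other probes of its arrays (-0.58 ± 0.15, adjusted p = 0.00856). The median net Cy5 signal of Marchf8, though, was 17.25 units in NOD and 8.25 units in NOD.B10. Ctsl, the cathepsin that does the work of Ctss in thymic epithelium, read -0.014 (adjusted p = 0.959). Ctsc, Marchf1 and Marchf8 did not pass once slide was a fixed term (adjusted p = 0.0564, 0.0606 and 0.128).

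Of 16 regulators of class II transcription, 4 were tested and 2 called higher: Irf8, a factor of B cells, dendritic cells and macrophages (0.65 ± 0.16, SE, limma adjusted p = 0.00637), and Prdm1, a repressor of Ciita in plasma cells (0.59 ± 0.14, adjusted p = 0.00656). Relative to the median change of the tested probes with median centring (0.43) both stood on the other side of 0 (-0.015 and -0.030). With slide as a fixed term Irf8 did not pass (adjusted p = 0.102) and Prdm1 did (adjusted p = 0.0488). In NOD.B10 neither was above background on any array, and 30.2% of all tested probes of that kind were called higher. Nfyb, a chain of the NF-Y complex that binds the Y box, read 0.25 (adjusted p = 0.311) and Creb1 0.11 (0.498). The 3 chains of the RFX complex, Rfx5, Rfxap and Rfxank, were well above background on no array, nor were Nfya, Nfyc, Spi1 and Pax5.

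All 10 tested genes of 14 in interferon gamma signalling were called higher, against 20.0% of all tested probes. Igtp, Gbp2, Socs1, Socs3 and Irgm1 passed the filter through the NOD arrays alone, and 30.2% of all such probes were called higher. The count is therefore no independent support. The 10 genes include the interferon-induced GTPases Igtp (2.28 ± 0.21, SE, limma adjusted p = 1.46e-05, at least 3.86-fold) and Gbp2 (2.20 ± 0.21, adjusted p = 2.16e-05, at least 2.81-fold). Irf1, a factor that acts on an interferon-inducible promoter of Ciita, was higher by 1.94 ± 0.22 (adjusted p = 7.85e-05), and the feedback inhibitor Socs3 by 1.64 ± 0.21 (adjusted p = 0.000163, at least 2.56-fold). Among the others were Ifngr1, Jak1, Socs1, Ptpn2 and Irgm1. Of these Socs1 stood at -0.14 relative to the median change of the tested probes with median centring. Ptpn2 did not pass once slide was a fixed term (adjusted p = 0.274). Ifng itself was well above background on 2 NOD arrays and was not tested.

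Among 16 genes of costimulation and of T cell partners of class II, 4 were tested and all 4 called higher. These were Icosl, the ligand of ICOS (1.51 ± 0.33, SE, limma adjusted p = 0.00343, at least 1.73-fold), Cxcr4, a chemokine receptor (0.86), Cd44, an adhesion receptor that signals with CD74 (0.75, at least 1.45-fold), and Mif, the cytokine that binds CD74 (0.35). With slide as a fixed term Cd44 and Mif did not pass (adjusted p = 0.0507 and 0.186). Of all tested probes 20.0% were called higher. Icosl, Cxcr4 and Cd44 passed the filter through the NOD arrays alone, and 30.2% of all such probes were called higher. The probes of Cd80, Cd86 and of the class II co-receptor Cd4 were well above background on no array. Of 5 further class II chains, H2-Eb2 and H2-DMb2 had probes, and these were above background on no array.

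Markers of cells that can carry class II were read beside the set, and many of them were at background. All 7 tested B cell markers, both tested dendritic cell markers and every tested pan-leukocyte marker but Srgn passed the filter through the NOD arrays alone. So did some genes of the other lists, such as Icosl, Cxcr4, Cd44, Igtp, Gbp2 and Il7r. Among all tested probes of that kind 30.2% were called higher, so counts of calls in these lists are no independent support. Of 13 B cell markers 7 were tested and 6 called higher, led by Ms4a1 (3.49 ± 0.41, SE, limma adjusted p = 8.4e-05, at least 7.57-fold), Pou2af1, a coactivator of B cells (2.78 ± 0.29, at least 5.01-fold), Bank1, an adaptor of B cell receptor signalling (1.01 ± 0.20, at least 1.05-fold), and Cd79b, a chain of the B cell receptor (1.93 ± 0.40, at least 2.38-fold), which did not pass once slide was a fixed term (adjusted p = 0.0524). Of the 6 calls, those of Fcer2a and Fcrla also ended under that fit (adjusted p = 0.116 and 0.213). Relative to the median change of the tested probes with median centring, Fcrla (0.45 as reported) stood at -0.034, Bank1 at 0.0053 and Fcer2a at 0.014. Ms4a1, Pou2af1 and Cd79b stood at 2.35, 1.95 and 1.10 on that scale. Of the defining markers Cd79a, Blk, Cd22 and Spib were at background on all arrays. The summed net signal of the list was 260.5 to 2228 units in NOD and 9 to 38 units in NOD.B10, or 2.84 to 10.7 times array brightness in NOD and 0.269 to 1.65 times in NOD.B10.
Of 13 macrophage markers with a probe 6 were tested and 5 called higher, among them Lyz2 (4.05 ± 0.19, adjusted p = 7.46e-08), Mpeg1, a pore-forming protein of macrophages (2.16 ± 0.24), the complement chain C1qc (1.72 ± 0.24) and Aif1 (0.88 ± 0.15, at least 1.55-fold), while C1qa, C1qb, Cx3cr1, Cd14, Itgam and Mrc1 were at background on all arrays. The tested macrophage marker that was not called was Adgre1 (-0.068, limma adjusted p = 0.72), well above background on 4 NOD arrays and 1 NOD.B10 array. The summed signal of the macrophage list was 961 to 5004 units in NOD and 63 to 115 units in NOD.B10, or 13.7 to 25.3 times array brightness in NOD and 1.58 to 2.85 times in NOD.B10.
Of 12 dendritic cell markers with a probe 2 were tested and both called higher. Itgax, the integrin CD11c, was higher by 0.45 ± 0.11 (adjusted p = 0.00724). Relative to the median change of the tested probes it stood at -0.057 with median centring. Cd83, a maturation marker shared with activated B cells, was higher by 1.31 ± 0.37 (adjusted p = 0.0144, at least 1.50-fold). Both did not pass once slide was a fixed term (adjusted p = 0.101 and 0.146). The other 10, Flt3, Zbtb46, Xcr1 and Siglech among them, were at background on all arrays, and the summed signal was 29 to 182.5 units in NOD and 6.5 to 33 units in NOD.B10, which overlap.
Of 11 T cell markers with a probe 6 were tested and 5 called higher, among them Il7r and Thy1 (2.65 ± 0.34, adjusted p = 0.000151), with Cd3e, Cd3g, Cd2, Lck and Trat1 at background. The calls of Cd5 and Cd8a ended with a fixed slide term (adjusted p = 0.0845 and 0.0566). Of 9 pan-leukocyte markers 8 were tested and all 8 called higher, led by Ptprc (4.09 ± 0.35, adjusted p = 1.08e-05, at least 10.3-fold), with a summed signal of 705 to 5346 units in NOD and 20.8 to 66.5 units in NOD.B10. The part of any of these cells in the class II values was not tested.
Of 12 endothelial markers, cells that can carry class II in inflamed tissue, 5 were tested with 0 called higher and 0 lower in limma (0 at an unadjusted p under 0.05), among them Kdr (-0.13, adjusted p = 0.632) and Flt1 (-0.17, adjusted p = 0.258). Of 8 tested beta cell markers 0 were higher and 3 lower relative to the other probes of their arrays, Ins2 (-3.35 ± 0.56, adjusted p = 0.000707), the glucose transporter Slc2a2 (-2.58 ± 0.46) and Ins1 (-1.75 ± 0.62), although the net signals of Ins2 overlapped as given above and the call of Ins1 ended with a fixed slide term (adjusted p = 0.126). Of 7 tested acinar markers 0 were higher and 5 lower relative to the other probes of their arrays, such as the amylase Amy1 (-4.51 ± 1.19, adjusted p = 0.0107). Of the 5, Pnlip did not pass with that term (adjusted p = 0.0542). The median net signal of Amy1, though, was 167.5 units in NOD and 173.5 units in NOD.B10. Summed over the acinar list the signals overlapped, with 314.5 to 3588.5 units in NOD and 248.5 to 11025 units in NOD.B10. The 1 tested ductal marker, Spp1, read 0.22 (adjusted p = 0.702).

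The direction of the 4 class II changes did not depend on how the arrays were scaled, but their sizes did. With median centring in place of loess the median change of the 5347 tested probes was 0.43, with the scanner's processed ratios 0.55, and in the reported values 0.016. Relative to that median Cd74 stood at 1.52 with median centring, 4.80 with the scanner's ratios and 1.30 with Cy5 alone, H2-Ab1 at 0.84, 4.67 and 0.78, H2-DMb1 at 0.16, 2.61 and 0.22, and H2-Oa at 0.24, 4.27 and 0.39, and each passed in the tests of the unshifted values. On the log2 scale the lower bounds given above were 2.21 for Cd74, 1.11 for H2-Ab1 and 0.41 for H2-DMb1. These relative values lay below them with median centring and with Cy5 alone, and above them with the scanner's ratios. Over all tested probes 55.0% of calls were higher as reported, 100% with median centring, 79.4% with the scanner's ratios and 76.3% with Cy5 alone.
Within slide 2 the changes were 2.93 for Cd74, 2.29 for H2-Ab1, 0.37 for H2-DMb1 and 0.94 for H2-Oa, and within slide 3 they were 1.51, 1.44, 0.54 and 1.30. None of these passed limma with 2 mice against 2 (adjusted p from 0.0767 to 0.542), where 43 probes of 5347 were higher on slide 2 and 2 on slide 3. When each array's percentage of spots above background entered the fit as a covariate, a measure whose ranges in the strains do not overlap, H2-Ab1 stood at 0.53, H2-Oa at 0.36, H2-DMb1 at 0.090 and Cd74 at -0.29 (adjusted p from 0.897 to 0.968), with 5 probes of 5347 called in all. Brightness and strain could thus not be told apart by that fit.

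**Figure D4:**
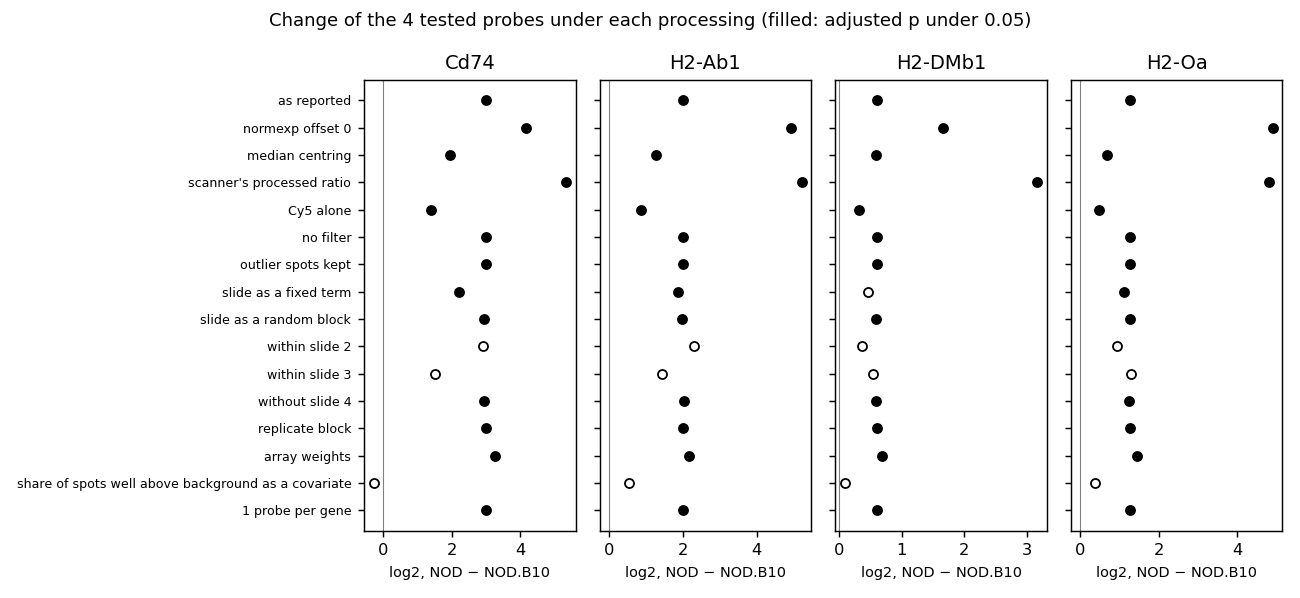
Log2 change, NOD minus NOD.B10, of the 4 tested probes as reported and under 15 other ways of processing (rows), unshifted, with an axis of its own per gene and filled points for an adjusted p under 0.05. Points are right of 0 in every row except that of Cd74 with the covariate for array brightness, and open in that row, within slides 2 and 3 and, for H2-DMb1, with slide as a fixed term.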

How the data were processed

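Scanner intensity values, the median signal and median local background of each spot in either channel, were deposited per array without normalisation, and per the file headers they come from Agilent Feature Extraction 10.5.1.1. That software also wrote, into each deposited file, intensity values it had processed and their log10 ratio of Cy5 to Cy3, with background subtraction and dye normalisation per the file headers, and the scanner's marks for outlier spots and for signals well above background. The values of the deposited series table are log2 ratios of the processed signals, Cy5 over Cy3, as a comparison showed (100% of those compared, within 0.001). The dyes were not swapped, no spot was saturated, and all columns could be mapped to a mouse. Genomic positions of the probes were not used here.

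Starting from the median signals, limma 3.58.1 (R 4.3.3) was used for normexp background correction with an offset of 50 and for within-array loess with control spots at weight 0. The spots of a probe were averaged, without those marked as outliers where another remained. Probe accessions were matched to symbols of GRCm38.p6, which named 24375 probes (17016 symbols). Probes with Cy5 well above background on at least 4 of 12 arrays, 5347 in all, were tested with lmFit and eBayes, NOD minus NOD.B10, with Benjamini-Hochberg adjustment over all of them and a threshold of 0.05. Different probes of a gene were kept apart, and listed genes were read by their brightest probe in Cy5. A fold is a lower bound where no NOD.B10 array was well above background: the mean normalised Cy5 signal (loess, then Aquantile) of NOD over that of NOD.B10, with each NOD.B10 array raised, where lower, to the 10th percentile of its signals well above background. Arrays carry no counts, and their number limits the precision.

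Named are all member probes, up to 4 tested genes with the smallest p per list, the 8 genes nearest to Cd74 and to H2-Ab1, and Ins2, Ptprc, Cd79a, Ms4a1, Lyz2 and Itgax. Other listed genes were named after their values were seen. Not every listed gene is reported here by name. Members, lists, tests and the floor of the bounds were chosen with earlier results of these data known. The tests were tried on simulated data. Replicate numbers do not pair the mice: same-numbered mice deviated together with correlations from -0.155 to 0.230. Alternatives were other background, scaling and filter choices, slide terms, array weights, a replicate block, a brightness covariate and leaving out each mouse.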

Additional observations from a re-analysis of the deposited data

How the results depend on the processing

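The numbers of probes called depend on the processing. As reported, 1071 probes were higher and 876 lower. With median centring 2581 were higher and 1 was lower (limma, with 4 lower before adjustment), the scanner's ratios 410 lower, Cy5 alone 366 lower and no filter 1674 lower. Slide as a fixed term gave 508 higher and 429 lower, slide 2 alone 43 and 56, slide 3 alone 2 and 1, and the brightness covariate 5 and 0 (limma, with 222 and 177 before adjustment at p under 0.05). For member probes these last 3 fits made 0 calls in limma (2, 1 and 0 probes had an unadjusted p under 0.05), and slide as a fixed term 3. The other alternatives called all 4. Within slides fewer mice were compared, and otherwise the cause of a lost call was not tested. With the covariate Cd74 reversed to -0.29 (adjusted p = 0.966). Over the 27 alternatives Cd74 was positive in 26 and the other 3 probes in all 27, with adjusted p up to 0.918 for H2-Oa, 0.897 for H2-Ab1 and 0.968 for H2-DMb1.

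Leaving out each mouse in turn gave 873 to 1219 probes higher and 713 to 1020 lower, with 4 members in each fit, and log2 changes of 2.63 to 3.53 for Cd74, 1.84 to 2.28 for H2-Ab1, 0.54 to 0.69 for H2-DMb1 and 1.16 to 1.46 for H2-Oa. With a replicate block 918 probes were higher and 739 lower, and all 4 members passed. The numbers mark no pairs, and 1 of 6 mice correlated best with its own number. With the lowest signal above background as floor, tried after the values were seen, the floor did not come into play, and the values are plain ratios of the mean normalised Cy5 signals, NOD over NOD.B10, and no bounds: 5.63 for Cd74, 2.98 for H2-Ab1, 1.41 for H2-DMb1 and 1.97 for H2-Oa. The correlations across NOD mice gave 0 of 10 pairs with the scanner's ratios too. Signals near background in NOD.B10 limit all 12 probes: a level in that strain can be bounded and not measured. None of the 26 groups of 6 mice checked held a single mouse apart from the rest by Dixon's criterion.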
